A study of Homo sapiens with 6 samples.

Results

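The genes of the mTOR complexes were examined in HT1080, an established human fibrosarcoma cell line, after exposure to IFNβ. They comprise the kinase MTOR, the mTORC1 subunits RPTOR and AKT1S1, the mTORC2 subunits RICTOR, MAPKAP1, PRR5 and PRR5L, the shared subunits MLST8 and DEPTOR, and TTI1, which helps to fold and assemble the kinase. These 10 genes were chosen by name from the 62710 genes listed, each matched 1 Ensembl gene ID, and all 10 passed the filter on low values that left 20716 genes for testing. The cells were left untreated or received human IFNβ at 20 ng/mL for 24 h, as the labels state, with 3 libraries per group. The methods of the study name mouse IFNβ in their part on RNA sequencing. Their part on cell culture names human IFNβ for HT1080 and the other human lines. No allele, knockdown or other agent distinguished the groups. The study states in general that its in vitro results came from 3 or more independent biological replicates, without naming the libraries. The labels do not say whether the libraries of a group came from separate cultures, so the spread between them may be technical.

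The mTOR kinase works in separate complexes that share a core. In mTORC1, RPTOR (raptor) recruits substrates such as the S6 kinases and the 4E-BP proteins, through which amino acids and growth factors promote protein synthesis and restrain autophagy. In mTORC2, RICTOR and MAPKAP1 (also called SIN1) build the scaffold that presents AKT, SGK and protein kinase C to the same kinase. The kinase and MLST8 are found in both complexes.

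The libraries held between 22848104 and 32915500 fragments, recovered from the FPKM values, which kept the step that 1 fragment adds. FPKM is the number of fragments scaled by 1 length per gene and by the depth of the library. For most of the mTOR genes this length was at or near that of all annotated exons together. The lengths of the transcripts expressed here are not known, so levels of different genes compare only roughly. IFIT1, ISG15 and MX1, which IFNβ is known to induce, were 138 to 450 times higher in mean FPKM in the treated libraries. All 8 mesenchymal marker genes were measured, with a summed level of 1202 to 1263 FPKM in untreated and 1226 to 1280 FPKM in treated libraries. These sums hide opposite changes, as 3 of the 8 were higher and 2 lower with IFNβ (limma adjusted p under 0.05). FN1 went from a mean of 88.4 up to 126 FPKM, and VIM from 399 down to 325 FPKM. EPCAM, CDH1, KRT20, PTPRC, CD3E, CD14, CDH5 and VWF, markers of epithelial, blood or endothelial cells, were under 0.1 FPKM in every library, whereas the epithelial marker CLDN4 rose from 0.314 ± 0.109 FPKM to 0.575 ± 0.0584 FPKM (S.D., n = 3, limma adjusted p = 0.0473) and the endothelial marker PECAM1 had 0.238 ± 0.0772 and 0.285 ± 0.0581 FPKM. The mitochondrial rRNA genes MT-RNR1 and MT-RNR2 made up 0.987% to 1.02% of all FPKM in untreated and 0.356% to 0.364% in treated libraries, and their part in the results below was not tested.

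To place the sequences beside the expression values, the promoters of the genes were taken from RefSeq on GRCh38.p14, which holds 7 of the 10 (MTOR, RPTOR, RICTOR, MAPKAP1, PRR5, PRR5L and TTI1). MLST8, DEPTOR and AKT1S1 had no entry. The promoters of RICTOR and MAPKAP1 are shown because these genes changed most, that of RPTOR because it is the mTORC1 counterpart of RICTOR, and that of ISG15 as an interferon-induced gene for comparison. Each runs 5′ to 3′ from 250 bases before the RefSeq start to 30 bases after it. Capitals mark matches to the motifs described next.
RICTOR: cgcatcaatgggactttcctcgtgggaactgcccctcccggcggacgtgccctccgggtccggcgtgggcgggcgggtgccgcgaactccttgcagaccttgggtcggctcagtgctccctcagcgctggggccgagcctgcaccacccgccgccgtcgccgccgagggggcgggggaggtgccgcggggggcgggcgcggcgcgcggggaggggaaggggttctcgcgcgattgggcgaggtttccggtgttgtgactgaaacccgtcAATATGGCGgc
MAPKAP1: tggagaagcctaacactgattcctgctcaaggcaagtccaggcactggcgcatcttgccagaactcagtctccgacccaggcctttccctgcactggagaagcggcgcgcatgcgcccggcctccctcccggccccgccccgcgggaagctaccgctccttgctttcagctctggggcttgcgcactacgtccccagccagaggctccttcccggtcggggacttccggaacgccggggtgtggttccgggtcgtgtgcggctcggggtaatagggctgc
RPTOR: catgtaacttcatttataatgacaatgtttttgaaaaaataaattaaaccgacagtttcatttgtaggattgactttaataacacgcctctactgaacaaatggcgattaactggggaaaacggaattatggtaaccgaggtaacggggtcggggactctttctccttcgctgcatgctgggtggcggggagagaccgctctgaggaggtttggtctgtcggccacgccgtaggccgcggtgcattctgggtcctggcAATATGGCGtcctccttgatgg
ISG15: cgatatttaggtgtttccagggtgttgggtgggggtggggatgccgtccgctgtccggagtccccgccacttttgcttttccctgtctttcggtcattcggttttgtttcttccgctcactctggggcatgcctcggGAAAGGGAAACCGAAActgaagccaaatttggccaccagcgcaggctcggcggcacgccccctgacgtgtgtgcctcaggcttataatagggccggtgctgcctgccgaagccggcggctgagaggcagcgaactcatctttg
They lie at chr5:39074370-39074649 (minus strand), chr9:125707179-125707458 (minus strand), chr17:80544588-80544867 (plus strand) and chr1:1013247-1013526 (plus strand).

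The interferon-stimulated response element found in promoters of interferon-induced genes was searched on both strands as a pair of GAAA blocks with any 2 bases between them, over the window from 250 bases before to 50 bases after the start. It was present in 3.57% of 35116 promoters of this length. It was found in none of the promoters of the 7 mTOR genes, the 3 listed for PRR5 and the 3 listed for PRR5L included. It was found in the promoters of ISG15 and IFIT1 and in 2 of the 3 promoters listed for MX1. In ISG15, its 2 matches share the bases between them, from 113 bases before the start. The gamma-activated site, searched as TTCNNNGAA, was present in 7.66% of all promoters and in none of the 7 genes. A further motif was chosen after the sequences had been seen. The YY1 motif AANATGGCG, also searched on both strands and present in 3.19% of promoters, matched RICTOR from base 20 and RPTOR from base 9 after the start, in both as AATATGGCG. MAPKAP1 held none of the motifs searched. The letters describe these windows only. The printed stretch was 73.6% G and C in RICTOR, 66.8% in MAPKAP1 and 48.2% in RPTOR.

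RICTOR rose and MAPKAP1 fell, both of which encode scaffold subunits of mTORC2, and AKT1S1 and MLST8 fell less. IFNβ-treated and untreated libraries were compared for all genes with limma on log2(FPKM + 0.1), and a gene was taken to pass at an adjusted p-value (Benjamini-Hochberg) under 0.05. Of the 10 genes, 4 passed, 1 of them higher and 3 lower, against 32.7% of all genes tested (15.2% higher and 17.5% lower). Of the 8 that averaged 1 FPKM or more, 4 passed, against 49.4% of the 11996 genes at this level. With an absolute log2 fold change of 1 or more as well, 2 of the genes were differentially expressed genes (DEGs), against 4.22% of all genes tested, RICTOR among the 3.49% of all genes that were higher and MAPKAP1 among the 0.739% that were lower. The study lists both RICTOR and MAPKAP1 among ferroptosis-related genes that changed in these same libraries, so their place among the 10 genes is not independent of their change, and nothing is read from this count. The median log2 fold change of the 10 genes was -0.13, and that of all genes tested was 0.00017. For the 8 that averaged 1 FPKM or more it was also -0.13, against -0.034 for the 11996 genes at this level.

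RICTOR (ENSG00000164327, chromosome 5 from 38937919 to 39074408 on GRCh38, minus strand) encodes the subunit that defines mTORC2. It measured 3.02, 3.28 and 3.22 FPKM in untreated and 8.48, 7.73 and 8.19 FPKM in IFNβ-treated libraries. Every treated library was above every untreated one, and the gap between the groups was wider than the spread inside either. The mean rose 2.56 times, from 3.18 ± 0.137 to 8.13 ± 0.374 FPKM (S.D., n = 3), or by 1.33 on the log2 scale (SE 0.05, 95% interval 1.21 to 1.45, limma adjusted p = 9.27e-06). In whole-culture RNA, a change in every cell and a change in a share of the cells cannot be told apart, here or for the other genes. These levels rest on 935 to 1437 fragments per untreated library and 2616 to 3534 per treated library. Of the 11996 genes that averaged 1 FPKM or more, 275 had a larger log2 fold change. The exons of RICTOR share 229 bases with OSMR, which lies on the opposite strand, and whether the counting used strand is not given in the sources used here. OSMR, the oncostatin M receptor, went from 32.4 to 38.0 FPKM, a log2 fold change of 0.23 (limma adjusted p = 0.0017), and the part of the shared bases in the rise of RICTOR was not tested.

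MAPKAP1 (ENSG00000119487, chromosome 9 from 125437393 to 125707234, minus strand) encodes SIN1, the mTORC2 subunit that binds the substrate kinases. It measured 26.5, 26.9 and 27.3 FPKM in untreated and 12.4, 12.8 and 13.4 FPKM in IFNβ-treated libraries. The treated libraries were all below the untreated ones by a margin far wider than the spread inside either group. The mean went from 26.9 ± 0.438 down to 12.9 ± 0.467 FPKM (S.D., n = 3), which is 0.479 of the untreated level and -1.06 on the log2 scale (SE 0.03, limma adjusted p = 2.89e-06). The 95% interval ran from -1.13 to -0.98 and included the DEG threshold of -1. The fragments numbered 4074 to 6063 per untreated and 2164 to 2605 per treated library. Of the genes that averaged 1 FPKM or more, 68 had a larger fall. No other gene in GENCODE release 29 shares exon bases with it. Release 29 has 20 transcripts for this gene, and the FPKM use a single length of 6741 bases, so a shift between transcripts of different length cannot be told apart from a change in their number.

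**Figure D1:**
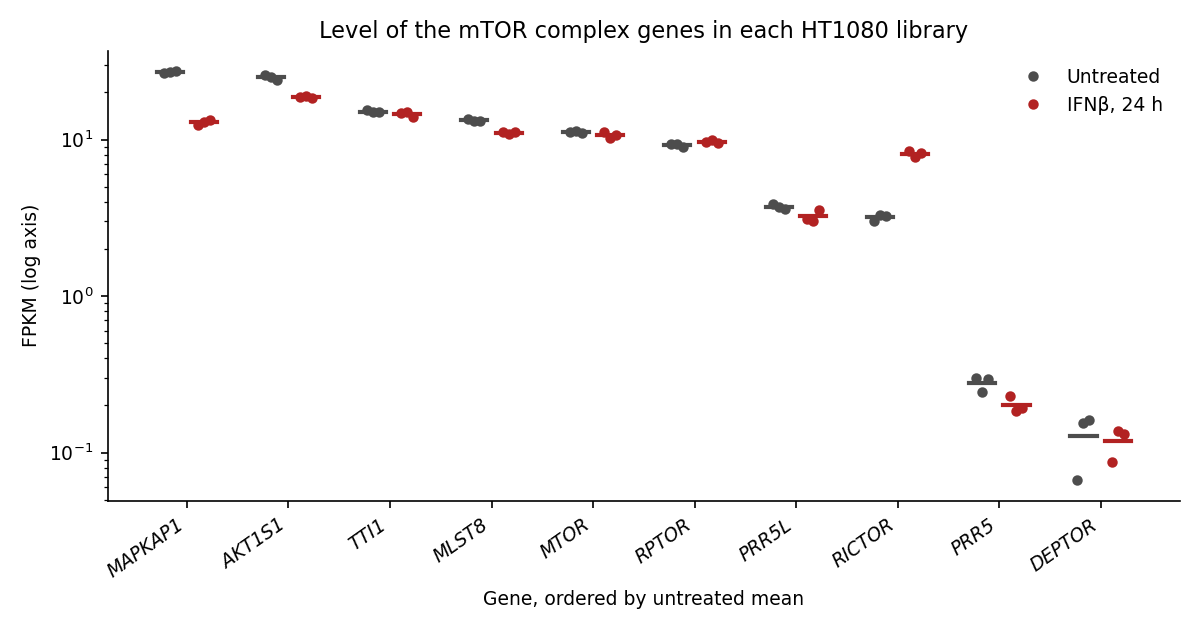
FPKM of the 10 mTOR complex genes on a log axis, 1 point per library (grey, untreated; red, IFNβ for 24 h) with a bar at the group mean, ordered by the untreated mean. MAPKAP1 moves down from 26.9 to 12.9 FPKM and RICTOR up from 3.18 to 8.13 FPKM, while the points of MTOR and DEPTOR overlap between groups.

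The other mTORC2 subunits, PRR5L and PRR5, did not pass. PRR5L (ENSG00000135362, chromosome 11 from 36296288 to 36465204, plus strand), the protor-2 companion of RICTOR, measured 3.87, 3.68 and 3.60 FPKM in untreated and 3.09, 3.03 and 3.56 FPKM in treated libraries. The groups did not overlap, but the highest treated library lay just under the lowest untreated one, and the log2 fold change was -0.20 (95% interval -0.38 to -0.03, limma adjusted p = 0.0762). PRR5 (ENSG00000186654, chromosome 22 from 44668547 to 44737681, plus strand), or protor-1, had 0.280 ± 0.0312 and 0.201 ± 0.0245 FPKM (S.D., n = 3 each) from 24 to 51 fragments per library, a log2 fold change of -0.34 with an interval from -0.80 to 0.13 (limma adjusted p = 0.247). PRR5L was thus the higher of these paralogs in FPKM, with 13.4 ± 1.5 times the FPKM of PRR5 in untreated and 16.2 ± 2.57 times in treated libraries. The read-through gene PRR5-ARHGAP8, which shares 933 exon bases with PRR5 on its strand, was listed at 0 in every library.

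The kinase itself and the defining subunit of mTORC1 did not pass, and their intervals were narrow. MTOR (ENSG00000198793, chromosome 1 from 11106535 to 11262507, minus strand) measured 11.1, 11.3 and 11.0 FPKM in untreated and 11.1, 10.3 and 10.7 FPKM in treated libraries. The groups overlapped, and the log2 fold change of -0.06 had an interval from -0.14 to 0.02 (limma adjusted p = 0.235). RPTOR (ENSG00000141564, chromosome 17 from 80544819 to 80966371, plus strand) measured 9.38, 9.37 and 8.92 FPKM in untreated and 9.61, 9.91 and 9.51 FPKM in treated libraries. The treated libraries lay above the untreated ones by a narrow margin, with a log2 fold change of 0.07 (95% interval -0.01 to 0.15, limma adjusted p = 0.167). MTOR rested on 3395 to 4854 fragments per library and RPTOR on 2209 to 3049. For both genes the interval leaves room for a change of at most 0.15 on the log2 scale in either direction, well short of those of RICTOR and MAPKAP1.

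AKT1S1 (ENSG00000204673, chromosome 19 from 49869033 to 49878459, minus strand) encodes PRAS40, an inhibitor of mTORC1 that AKT phosphorylates. It measured 25.7, 25.2 and 24.1 FPKM in untreated and 18.7, 18.8 and 18.4 FPKM in treated libraries. The treated libraries were all lower and close to one another, with a log2 fold change of -0.42 (SE 0.03, limma adjusted p = 1.10e-04). Its exons share 392 bases with TBC1D17 on the opposite strand, which had a log2 fold change of 0.06 (limma adjusted p = 0.411). The part of shared exon bases in the fall of AKT1S1 was not tested.

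MLST8 (ENSG00000167965, chromosome 16 from 2204248 to 2209416, plus strand), the small subunit that binds the kinase domain in both complexes, measured 13.6, 13.0 and 13.1 FPKM in untreated and 11.2, 10.8 and 11.2 FPKM in treated libraries. The exons share 164 bases with BRICD5 on the opposite strand, which had 0.930 and 1.36 FPKM and did not pass. The groups did not overlap for MLST8, with a log2 fold change of -0.26 (SE 0.03, limma adjusted p = 9.52e-04). DEPTOR (ENSG00000155792, chromosome 8 from 119873717 to 120050913, plus strand), an inhibitor that binds the kinase in both complexes, was barely detected, with 0.0666, 0.154 and 0.162 FPKM against 0.0865, 0.137 and 0.132 FPKM. It had 4 to 14 fragments per library. The 95% interval of its log2 fold change ran from -0.76 to 0.69, so these values do not exclude a change within these bounds. TTI1 (ENSG00000101407, chromosome 20 from 37983007 to 38033468, minus strand), which acts with TELO2 and TTI2 in stabilising mTOR and related kinases, measured 15.4, 15.0 and 14.9 FPKM in untreated and 14.7, 14.9 and 14.0 FPKM in treated libraries. Its groups nearly touched, and its log2 fold change of -0.05 did not pass (95% interval -0.13 to 0.02, limma adjusted p = 0.261). In all, the libraries of the groups did not overlap for 8 of the 10 genes, against 46.6% of the genes tested. Of the 8 that averaged 1 FPKM or more, 7 did not overlap, against 7521 of the 11996 genes at this level. As RICTOR and MAPKAP1 were known to change, nothing is read from these counts.

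**Figure D2:**
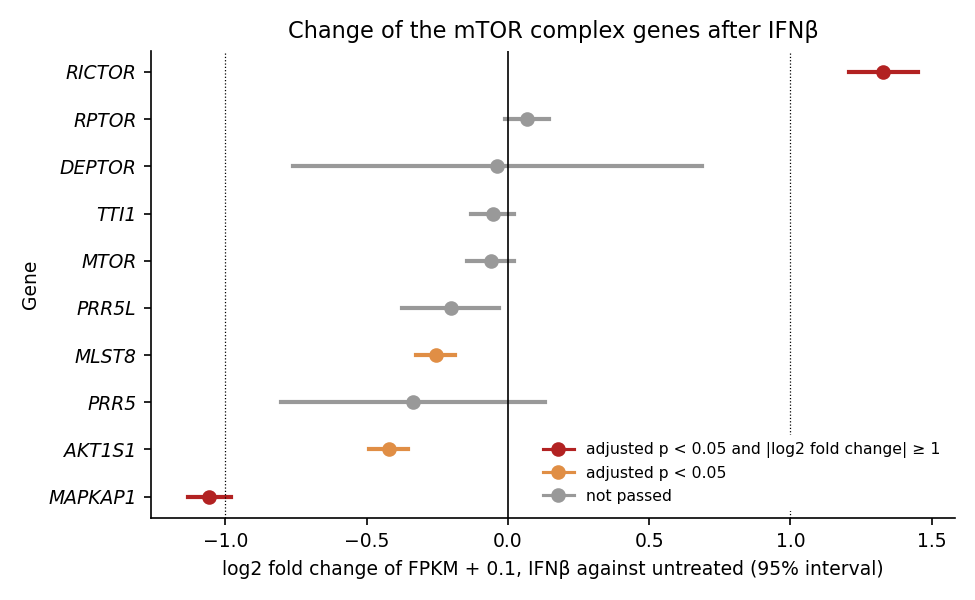
Log2 fold change of FPKM + 0.1 between IFNβ-treated and untreated libraries for the 10 genes, with 95% intervals from limma and dotted lines at -1 and 1 (3 libraries per group). RICTOR at 1.33 and MAPKAP1 at -1.06 stand at opposite ends, AKT1S1 and MLST8 are below 0, and the wide intervals of PRR5 and DEPTOR go with their low fragment numbers.

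The order of mean FPKM among the genes, which depends on the length used for each gene, differed between the groups. In untreated cells it ran MAPKAP1, AKT1S1, TTI1, MLST8, MTOR, RPTOR, PRR5L, RICTOR, PRR5 and DEPTOR, and no neighbours in this order overlapped in FPKM. In treated cells it ran AKT1S1, TTI1, MAPKAP1, MLST8, MTOR, RPTOR, RICTOR, PRR5L, PRR5 and DEPTOR, where MLST8 and MTOR overlapped and the other neighbours did not. MAPKAP1 thus went from rank 1 to rank 3 and RICTOR from rank 8 to rank 7.

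Ratios of FPKM inside a library do not depend on the scaling between libraries. RICTOR to RPTOR, the mTORC2 subunit against its mTORC1 counterpart, was 0.322, 0.350 and 0.362 in untreated and 0.882, 0.781 and 0.861 in treated libraries. RICTOR thereby made up 25.6% ± 1.13 of the summed FPKM of RICTOR and RPTOR in untreated and 45.7% ± 1.6 in treated libraries (S.D., n = 3 each). Whether the numbers of their transcripts came near equality cannot be told from FPKM. MAPKAP1 to RICTOR was 8.75, 8.20 and 8.47 in untreated and 1.47, 1.66 and 1.63 in treated libraries. The excess of MAPKAP1 over RICTOR in FPKM was smaller in every treated library, with a difference of -2.42 in the log2 ratio. MAPKAP1 to MTOR was 2.41 ± 0.0580 and 1.21 ± 0.0754 (S.D., n = 3 each). The groups were separate for each of these 3 ratios. An exact two-sided permutation test gave p = 0.1 for each, before and after Benjamini-Hochberg adjustment over the 3. This is the smallest p that 3 libraries against 3 allow. Each ratio holds RICTOR or MAPKAP1, which were known to change in these libraries. The separation thus restates their changes, and nothing further is read from it or from the test. Relative to MTOR, and not among the ratios planned, MLST8 was 1.19 ± 0.0369 in untreated and 1.04 ± 0.0229 in treated libraries, RPTOR 0.827 ± 0.0180 and 0.906 ± 0.0505, and RICTOR 0.285 ± 0.0110 and 0.760 ± 0.00822 (S.D., n = 3 each). The FPKM of RICTOR were thus below those of MTOR in both groups, and closer to them with IFNβ.

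**Figure D3:**
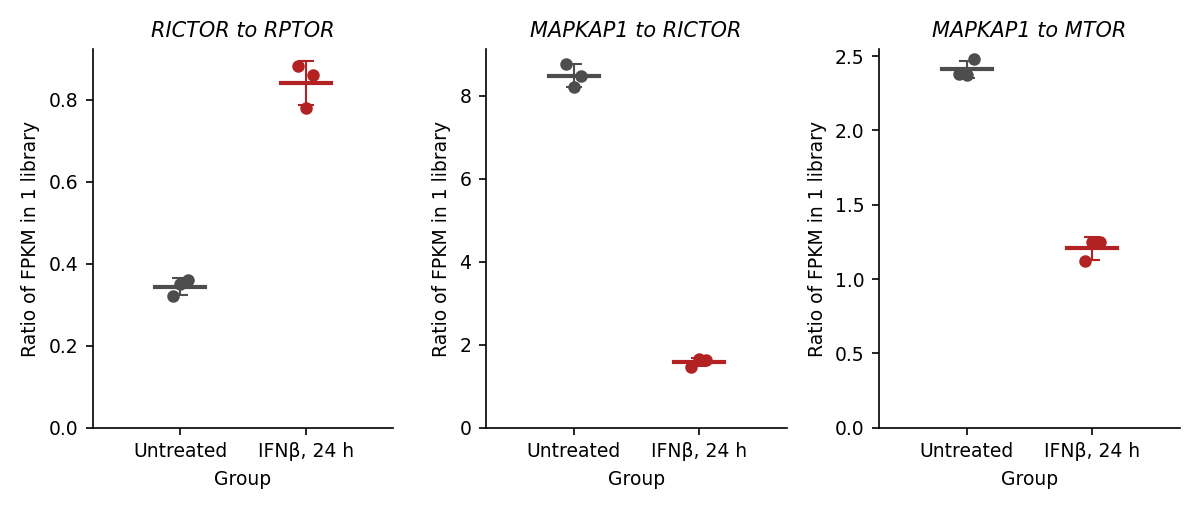
Ratio of FPKM between subunits in each library (points), with the group mean and S.D. (n = 3 libraries per group), on axes from 0. The untreated and treated means are 0.345 and 0.841 for RICTOR to RPTOR, 8.48 and 1.59 for MAPKAP1 to RICTOR, and 2.41 and 1.21 for MAPKAP1 to MTOR, with no overlap of points.

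The profiles most like those of RICTOR and MAPKAP1 were sought by the Euclidean distance between log2(FPKM + 0.1) values over the 6 libraries, each gene centred on its untreated mean, among 11902 genes that have a symbol of their own and average 1 FPKM or more. For RICTOR the nearest were CCDC144NL-AS1 (distance 0.116), TRAFD1 (0.125), STING1 (0.132), TAP2 (0.134) and MDK (0.140), with log2 fold changes between 1.27 and 1.36. For MAPKAP1 they were H2AZ2 (distance 0.113), GINS4 (0.126), PRR11 (0.127), ZNF778 (0.147) and FZD8 (0.151), with log2 fold changes between -1.10 and -1.01. With 6 libraries in 2 groups, the distance mostly reflects the size of the change.

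Outside the complexes, 91 further genes of the pathway were listed by role, of which 83 were tested. Of these, 13 rose, 28 fell and 42 did not pass. The share that passed was 49.4%, against 32.7% of all genes tested and 49.4% of those that averaged 1 FPKM or more. By direction, 15.2% of all genes tested were higher and 17.5% lower. Of the 11996 genes that averaged 1 FPKM or more, 2534 were higher and 3391 lower. By list, the share that passed ran from 25.0% (energy and stress input) to 56.25% (growth factor input). Nothing is read from the counts of the lists given below. None was a DEG in this fit or in any of the alternatives run. The log2 fold changes lay between -0.75 and 0.69 with a median of -0.07. The median was 0.00017 over all genes tested and -0.034 over those that averaged 1 FPKM or more. The 8 genes not tested included INSR, PIK3R2, CASTOR1, DDIT4L, SGK2, PRKCB and PRKCZ, of which DDIT4L, SGK2 and PRKCB were listed at 0 in every library. The groups did not overlap for 56 of the 83, against 46.6% of all genes tested and 7521 of the 11996 that averaged 1 FPKM or more. They also did not overlap for the pathway genes named next with a value of their own. These genes were picked for passing the test with the largest changes, so nothing is read from this.

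Means of the pathway genes are given with their S.D. over 3 libraries. Of the 6 partners of TTI1 in kinase assembly, 3 fell and none rose. RUVBL1, an ATPase of the R2TP chaperone, fell from 30.7 ± 0.549 FPKM to 24.2 ± 0.408 FPKM (-0.34 on the log2 scale, limma adjusted p = 1.04e-04). RUVBL2, with a log2 fold change of -0.12, and PIH1D1, with -0.14, fell less, and TELO2, TTI2 and RPAP3 did not pass.

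Of the 16 growth factor input genes tested, 4 rose and 5 fell. PIK3CA, a catalytic subunit of PI3K, rose from 4.24 ± 0.101 FPKM to 5.70 ± 0.241 FPKM (0.42 on the log2 scale, limma adjusted p = 6.93e-04). RHEBL1, a relative of the mTORC1 activator RHEB, rose with the largest log2 fold change of all the lists, 0.69 (limma adjusted p = 0.0141), with 2.90, 2.21 and 2.71 FPKM before and 3.50, 4.41 and 4.90 FPKM after treatment. Its treated libraries were all higher but spread widely.

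Among the 30 amino acid input genes tested, 5 rose and 10 fell. SEH1L, a subunit of the GATOR2 complex that relieves inhibition of mTORC1, fell from 10.2 ± 0.313 FPKM to 7.20 ± 0.209 FPKM (-0.50 on the log2 scale, limma adjusted p = 1.47e-04). SLC38A9, the lysosomal arginine sensor, rose from 1.61 ± 0.0419 FPKM to 2.28 ± 0.0457 FPKM (0.47 on the log2 scale, limma adjusted p = 0.00121). SESN2, a leucine sensor that restrains mTORC1, rose from 12.5 ± 0.810 FPKM to 16.6 ± 0.655 FPKM (0.40 on the log2 scale, limma adjusted p = 0.00195).

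Of the 8 energy and stress genes tested, 1 rose and 1 fell, both of them AMPK subunits. PRKAG2, a regulatory subunit, fell from 2.43 ± 0.116 FPKM to 1.63 ± 0.0706 FPKM (-0.55 on the log2 scale, limma adjusted p = 0.00124). PRKAB2 rose from 5.34 ± 0.252 FPKM to 6.17 ± 0.336 FPKM (0.20 on the log2 scale, limma adjusted p = 0.0301).

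Of the 18 genes for targets downstream of mTORC1, 2 rose and 8 fell. The share that passed was 55.6%, near the 49.4% of all genes that averaged 1 FPKM or more. EIF4B, a cofactor of the translation initiation helicase, fell from 98.3 ± 2.05 FPKM to 61.4 ± 0.637 FPKM (-0.68 on the log2 scale, limma adjusted p = 3.25e-06). RPS6, the ribosomal protein phosphorylated by the S6 kinases, fell from 341.9 ± 22.3 FPKM to 237.3 ± 12.8 FPKM (-0.53 on the log2 scale, limma adjusted p = 8.75e-04), a value that fragments shared with its processed pseudogenes could affect. MITF, a transcription factor of the TFEB family, fell from 1.49 ± 0.165 FPKM to 0.936 ± 0.0866 FPKM (-0.62 on the log2 scale, limma adjusted p = 0.00773). For the mTORC2 targets, 5 of 9 genes were tested, of which 1 rose and 1 fell. PRKCA, the conventional protein kinase C that needs mTORC2 for its stability, fell from 11.4 ± 0.185 FPKM to 6.71 ± 0.254 FPKM (-0.75 on the log2 scale, limma adjusted p = 2.46e-05), the largest fall of the lists. SGK1, a kinase that mTORC2 activates, rose from 9.07 ± 0.320 FPKM to 13.1 ± 0.204 FPKM (0.52 on the log2 scale, limma adjusted p = 8.52e-05). mRNA levels do not report the activity of these kinases, which depends on phosphorylation.

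**Figure D4:**
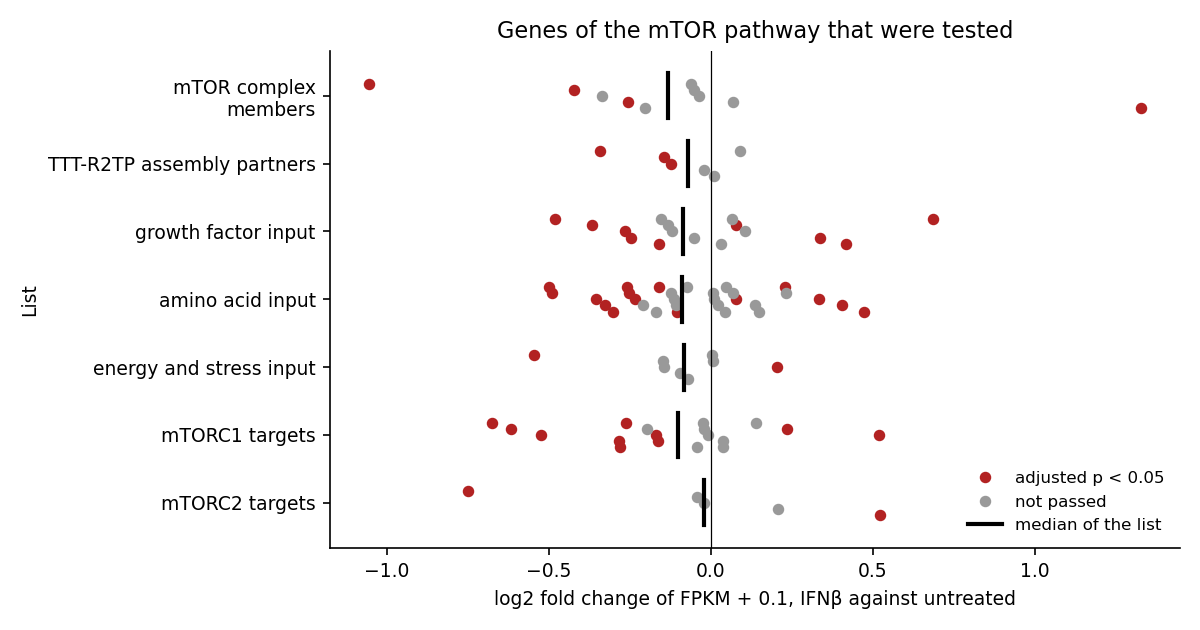
Log2 fold change of FPKM + 0.1, IFNβ against untreated, for the mTOR complex genes and the 83 tested genes of 6 pathway lists, 1 point per gene (red, adjusted p under 0.05; grey, not passed) with a line at each list's median. RICTOR at 1.33 and MAPKAP1 at -1.06 lie outside the range of the other lists, which runs from -0.75 to 0.69.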

How the data were processed

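RNA-seq data of 6 HT1080 libraries, 3 untreated and 3 IFNβ-treated, were analysed. The authors deposited FPKM, 1 value for each Ensembl gene in each library, without pooling. The submitters' processing notes name fastp, HISAT2, StringTie and GRCh38, and the methods of the study name DESeq2. Gene lengths, annotation and strandedness are not given in the sources used here. Gene names came from a table of gene IDs, and locations from GENCODE release 29. For 100% of the 35303 genes above 0, the ratios of the values between libraries gave whole fragments.

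Since FPKM are not counts, limma (version 3.58.1, R 4.3.3; lmFit, and eBayes with trend) was run on log2(FPKM + 0.1) for genes averaging at least 0.1 FPKM, with no covariate and Benjamini-Hochberg adjustment over all 20716 genes. Ratios of FPKM carried no pseudocount and were compared by exact permutation (scipy 1.17.1). A fold change on this scale understates that of low genes. In simulated data for this comparison (20250 genes, 200 changed, dispersion 0.005), 94.0% of the changed genes were called DEGs, beside 22 unchanged ones. The changed genes were drawn only from those with an untreated mean FPKM of at least 1. Their simulated folds lay beyond the DEG threshold, so this share does not describe changes near the threshold or lower genes.

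The genes and lists were chosen with earlier results of these data known. The named genes are the 10 subunits and, per pathway list, any DEG and up to 3 genes passing the test with the largest absolute log2 fold change at a mean FPKM of at least 1. The 5 nearest profiles to RICTOR and MAPKAP1 and interferon check genes were also named, and some genes that the rule covers are not reported here. MT-RNR1, MT-RNR2, TELO2, TTI2, RPAP3 and the YY1 motif were picked after their values or sequences were seen. The alternatives were pseudocounts of 1 and 0.01, no filter or a mean FPKM of at least 1, equal totals, median ratio and quantile scaling, eBayes without trend, a replicate block, each library left out, an adjusted p under 0.01, and limma-voom on recovered fragments.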

Additional observations from a re-analysis of the deposited data

How the results depend on the processing

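RICTOR and MAPKAP1 were DEGs in all 17 alternatives. The log2 fold change of RICTOR lay between 1.13 and 1.36 and that of MAPKAP1 between -1.08 and -1.01, the values nearest 0 coming from a pseudocount of 1. AKT1S1 and MLST8 fell in every fit. PRR5L, which did not pass in the main comparison (adjusted p = 0.0762), passed with a mean FPKM of at least 1 (0.0486), quantile normalization (0.0438), limma-voom (0.0193) and without IFNβ replicate 3 (0.0182), so that 4 or 5 of the 10 genes passed; over its alternatives the limma adjusted p reached 0.197. MTOR, RPTOR, PRR5 and TTI1 passed in none. The log2 fold change of DEPTOR, with at most 14 fragments, ran from -0.25 to 0.08 with single libraries left out and changed sign without untreated replicate 2 (0.056), without untreated replicate 3 (0.079) and without IFNβ replicate 1 (0.072).

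Of the pathway genes, 41 passed, 25 with an adjusted p under 0.01, by the stricter threshold itself, and 29 to 34 with single libraries left out. With single libraries left out the log2 ratio moved by 1.24 to 1.34 for RICTOR to RPTOR, by -2.45 to -2.36 for MAPKAP1 to RICTOR and by -1.03 to -0.95 for MAPKAP1 to MTOR, where 2 against 3 libraries allow no exact p under 0.2.

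The labels number the libraries 1 to 3 in each group. The deviations of same-numbered libraries correlated at 0.053, -0.018 and 0.12 over 11996 genes, so the number was not taken as a pairing. With the replicate number as a block, 4 of the 10 genes and 36 pathway genes passed. Under other scalings the median change over all genes lay between -0.060 and 0.012 on the log2 scale, and the share of higher genes among those passing, 46.5% in the main comparison, between 39.2% and 49.2%. Pairs of libraries in a group differed by more than counting error (chi-square of 1.77 to 3.38 per degree of freedom). Among the 10 genes, fragments per library were fewest for DEPTOR (4 to 14) and PRR5 (24 to 51), followed by PRR5L (501 to 785). The part of depth in their results was not tested.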
